A study of Mus musculus with 6 samples.

Results

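ATP-binding cassette (ABC) transporters were examined in primary mouse hepatocytes depleted of RetSat, the retinol saturase, by siRNA. The members are all genes picked by their single symbol in the platform annotation. It reads Abc, then a letter from a to g, then digits and at most 1 closing letter. This rule reads symbols only, but it and the lists by role were chosen with earlier results of these data known. The members were 48 of the 19938 genes tested, with 16 in subfamily A, 9 in B, 10 in C, 3 in D, 1 in E, 3 in F and 6 in G. Each gene was read from its brightest probe set, and only Abcb5 had more than 1.

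A set of cells received siRNA against RetSat (siRetSat) and the other a control siRNA (siControl), with 3 arrays of each. All of them were wild-type hepatocytes of a male C57BL/6J mouse, aged 10 weeks by the series' design text, seeded on collagen at 25 mM glucose. Transfection ran overnight and used 1 nmol of siRNA. RNA was harvested 48 h after the next medium change and 100 ng of it was hybridised to an Affymetrix Mouse Gene 1.0 ST array. The labels name Dharmacon as the source of the siRNA and the study's methods name Eurogentec. The p-values measure the spread between cultures, since the design text names 1 animal, and with 1 siRNA against RetSat its other effects cannot be separated here from those of losing RetSat.

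ABC proteins bind and hydrolyse ATP to move substrates across membranes. In the liver, pumps in the canalicular membrane, the face of the hepatocyte that lines the bile canaliculus, export bile salts, phospholipid, sterols and conjugates into bile, whereas others on the blood-facing side return drugs and conjugates to the circulation or load cholesterol onto apolipoproteins. Several of these pumps were first known for carrying drugs out of cells, and many are controlled by nuclear receptors that sense bile acids, oxysterols and foreign compounds. Members of subfamilies E and F have no membrane spans and act in translation.

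Retsat itself had log2 intensities of 4.62, 4.83 and 4.81 on the siRetSat arrays, against 6.80, 7.04 and 7.01 on the siControl arrays. This left 21.8% of the siControl signal (log2 fold change -2.20, standard error 0.105, adjusted p = 0.000112 from limma). The hepatocyte marker Alb (albumin) averaged 13.05 ± 0.06 in siRetSat and 12.98 ± 0.08 in siControl cells (SD, n = 3 each), with a log2 fold change of 0.07 (adjusted p = 0.844). Of the 11 hepatocyte markers measured, 3 were lower on every siRetSat array and 1, Abcc2, was higher on every one. The groups overlapped for the other 7, Alb among them. Over all genes, 10.1% were lower and 9.33% higher on every siRetSat array. The 3 lower markers had log2 fold changes of -0.82 for Cps1 (adjusted p = 0.0291), -0.72 for Tat (adjusted p = 0.0452) and -0.40 for Asgr1 (adjusted p = 0.148, not past the threshold). Genes whose mean over all 6 arrays was under 4.33, the 40th percentile of the genes tested, are called dim, and 12 of the 48 members were dim.

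RetSat depletion raised 4 ABC transporter genes and lowered 2 at an adjusted p under 0.05, and the other 42 did not pass. The 4 that rose were Abcb1a, Abcb1b, Abcc2 and Abcg2, all of them efflux pumps of the canalicular membrane that also carry drugs. Those that fell were Abca8a and Abca3, both lipid transporters of subfamily A. Over all 19938 genes, 1.91% were higher and 1.66% lower by the same test, beside 8.33% and 4.17% of the 48 members. At the cutoffs of the study's methods, which combine an unadjusted p under 0.05 with a minimum fold, 5 members were higher and 2 lower by limma (10.4% and 4.17%), against 4.47% and 4.58% of all genes. Abcd4, the lysosomal transporter of cobalamin, was the member that passed only these cutoffs. By the methods' t-test at the same cutoffs, 5 members were again higher and 2 lower, against 3.6% and 3.55% of all genes. An unadjusted p under 0.05 in limma, in either direction, was found for 9 of the 48 members and 14.5% of all genes. All 3 siRetSat arrays lay above all 3 siControl arrays for 7 members and below them for 6 (14.6% and 12.5%), which compares with 9.33% and 10.1% of all genes. The median log2 fold change of the members was 0.00, as was that of all genes, and the members' interquartile range lay between -0.13 and 0.10, against -0.10 and 0.10 for all genes.

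**Figure D1:**
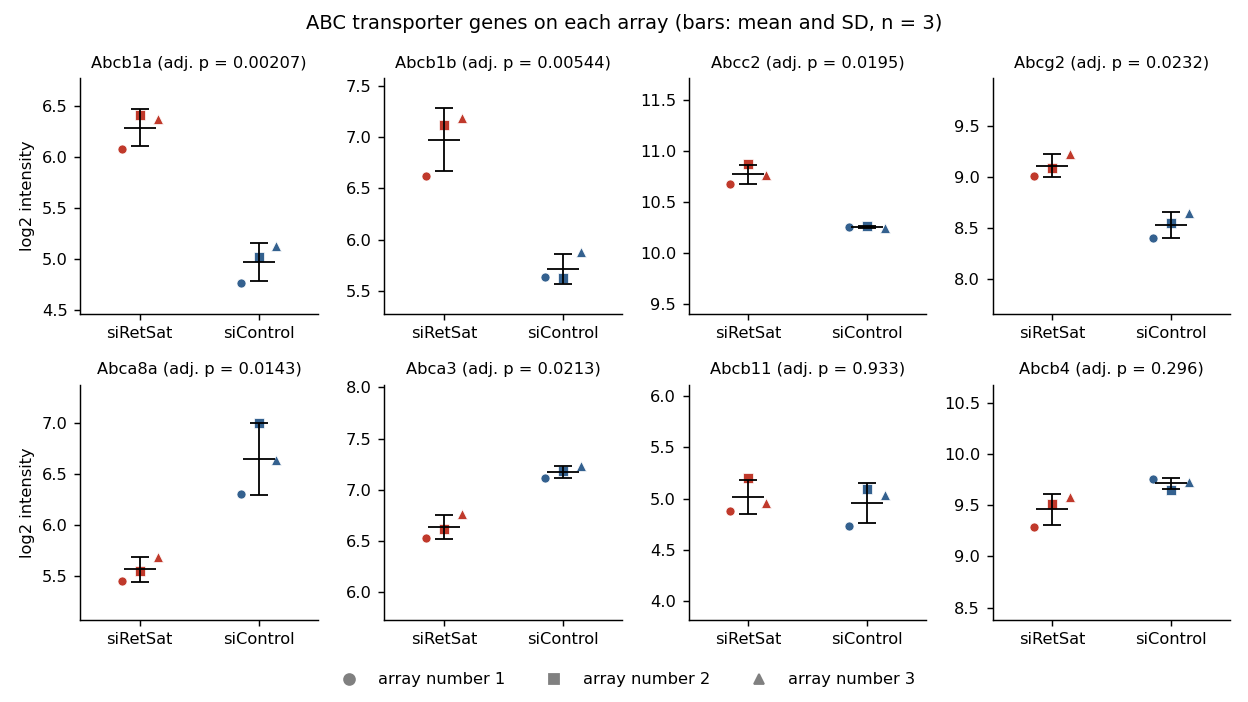
Each point is 1 array, with its log2 intensity on the y axis (every panel spans the same range, from a start of its own) and siRetSat left of siControl; bars show the mean and SD (n = 3). The groups do not overlap for Abcb1a, Abcb1b, Abcc2, Abcg2, Abca8a, Abca3 and Abcb4, and they overlap for Abcb11, whose mean is 5.01 in siRetSat and 4.95 in siControl cells.

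The sequences before the RefSeq starts of the 4 genes that rose are shown so that their promoters can be compared, together with that of Abcb4, the neighbour of Abcb1a and Abcb1b that did not rise. RefSeq's promoter table for GRCm38.p6 held 38 of the 48 members in 45 windows. Each sequence gives the 250 bases before the start, 5′ to 3′ on the strand of the gene, and for Abcg2 the most downstream of its 3 listed starts. Capitals mark matches on either strand to the CCAAT box (CCAAT), the GC box (GGGCGG), AP-1 (TGANTCA), the core of the antioxidant response element (TGACNNNGC), a core of the interferon response element (GAAANNGAA), the E box (CACGTG) and the nuclear receptor element core (AGGTCA). A match to the antioxidant core can also hold the nuclear receptor core, as one does in Abcc10.
Abcb1a (chr5:8566841-8567090, + strand): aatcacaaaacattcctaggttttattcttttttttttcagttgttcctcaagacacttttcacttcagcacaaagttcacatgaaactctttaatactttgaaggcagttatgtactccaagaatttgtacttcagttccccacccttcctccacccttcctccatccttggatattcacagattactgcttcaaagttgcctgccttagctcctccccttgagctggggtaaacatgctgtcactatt
Abcb1b (chr5:8797897-8798146, + strand): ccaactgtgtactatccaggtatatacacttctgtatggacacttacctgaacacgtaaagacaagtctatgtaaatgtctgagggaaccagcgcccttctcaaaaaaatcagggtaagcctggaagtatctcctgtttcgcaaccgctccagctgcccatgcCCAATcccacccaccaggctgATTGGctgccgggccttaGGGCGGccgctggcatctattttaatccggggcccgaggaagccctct
Abcb4 (chr5:8893471-8893720, + strand): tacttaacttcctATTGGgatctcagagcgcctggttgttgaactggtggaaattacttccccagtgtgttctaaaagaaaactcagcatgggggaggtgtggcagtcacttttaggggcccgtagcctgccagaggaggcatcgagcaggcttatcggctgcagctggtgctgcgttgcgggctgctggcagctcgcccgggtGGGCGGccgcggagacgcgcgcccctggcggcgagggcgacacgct
Abcc2 (chr19:43782058-43782307, + strand): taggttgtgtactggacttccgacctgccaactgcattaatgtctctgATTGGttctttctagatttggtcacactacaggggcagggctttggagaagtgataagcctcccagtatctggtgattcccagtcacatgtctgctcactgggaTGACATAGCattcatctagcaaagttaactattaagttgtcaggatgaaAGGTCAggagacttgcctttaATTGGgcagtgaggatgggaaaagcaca
Abcg2 (chr6:58640296-58640545, + strand): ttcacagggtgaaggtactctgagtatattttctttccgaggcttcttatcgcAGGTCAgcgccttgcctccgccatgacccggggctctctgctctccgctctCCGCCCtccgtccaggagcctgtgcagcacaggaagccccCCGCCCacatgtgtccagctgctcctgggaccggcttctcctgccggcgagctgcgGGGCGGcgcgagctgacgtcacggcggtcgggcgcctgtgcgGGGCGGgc

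The windows of Abcb1a and Abcb1b, which rose by nearly the same amount, shared none of these motifs. That of Abcb1a held no match and 40.4% G and C, whereas that of Abcb1b held a CCAAT box on each strand, from -87 and from -66 relative to the start, a GC box from -48 and 52.8% G and C. Abcb4, which did not rise, held a CCAAT box from -237 and a GC box from -46. In Abcc2, CCAAT boxes began at -202 and -28, the core of an antioxidant response element at -98 and a nuclear receptor element core at -49. The window shown for Abcg2 held GC boxes from -146, -106, -50 and -8 and a nuclear receptor core from -197. Its other listed windows held further matches, among them GC boxes, nuclear receptor cores and an interferon core. Among all 32851 windows of this length, 33.8% held a CCAAT box, 32.7% a GC box, 10.2% the antioxidant core, 14.0% the nuclear receptor core, 7.13% the interferon core, 6.75% AP-1 and 6.02% the E box. Of the 45 member windows, 28.9% held a CCAAT box, 44.4% a GC box, 8.89% the antioxidant core, 15.6% the nuclear receptor core, 4.44% the interferon core, 11.1% the E box and none AP-1. No motif could be common to the windows shown of the 4 genes that rose, since that of Abcb1a held none. These matches describe letters in a window, not binding.

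Abcb1a and Abcb1b, the pair of mouse genes that encode P-glycoprotein, the drug efflux pump, had the highest fold changes of the 48 members. Abcb1a had log2 intensities of 6.08, 6.41 and 6.37 on the siRetSat arrays, against 4.77, 5.02 and 5.13 on the siControl arrays. The lowest siRetSat array was 0.95 above the highest siControl array, and the change was 2.49-fold (log2 fold change 1.31, standard error 0.130, 95% interval 1.01 to 1.61, adjusted p = 0.00207 from limma). Abcb1b measured 6.62, 7.12 and 7.19 in siRetSat and 5.63, 5.62 and 5.88 in siControl cells. Here too the groups stood apart, by 0.74, with the array numbered 1 the lowest of the siRetSat arrays, and the change was 2.41-fold (log2 fold change 1.27, standard error 0.159, adjusted p = 0.00544 from limma). Exact permutation of the arrays gave a two-sided p of 0.1 for each of the 6 members past the threshold, the smallest that 3 against 3 arrays allow. The pair are close paralogs whose transcripts may share probes, so that their separate sizes are uncertain. The difference between the pair changed by 0.05 (standard error 0.111), and its values overlapped between the groups (exact permutation p = 0.7).

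Abcc2 and Abcg2 rose by less. Abcc2, which exports bilirubin glucuronides and other conjugates into bile, had 10.68, 10.87 and 10.77 on the siRetSat arrays, against 10.26, 10.27 and 10.25 on the siControl arrays. The siControl arrays hardly differed, the groups were 0.41 apart, and the rise was 1.43-fold (log2 fold change 0.51, standard error 0.0869, adjusted p = 0.0195 from limma). Abcg2, the breast cancer resistance protein, which carries sulphated conjugates, urate and drugs, had 9.01, 9.09 and 9.23 in siRetSat and 8.40, 8.55 and 8.65 in siControl cells. All 3 siRetSat arrays were higher, by at least 0.36, and the rise was 1.49-fold (log2 fold change 0.58, standard error 0.103, adjusted p = 0.0232 from limma). With each array left out in turn, both genes passed in only 1 of 6 fits, that lacking siRetSat replicate 1 (Abcc2 reached an adjusted p of up to 0.105 in the others and Abcg2 of up to 0.111), whereas Abcb1a and Abcb1b passed in all 6.

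The other canalicular pumps did not pass the test. Of the 8 members on the canalicular list, 4 rose, none fell and 4 did not pass, with a list median of 0.29. Abcb11, the bile salt export pump, had 4.88, 5.20 and 4.96 in siRetSat and 4.73, 5.09 and 5.04 in siControl cells. Its groups overlapped, and the 95% interval of its log2 fold change of 0.06 ran from -0.24 to 0.36 (adjusted p = 0.933). It was not dim, but its means of 5.01 in siRetSat and 4.95 in siControl cells lay near the limit of 4.33 for dim genes. Abcb4, the phospholipid floppase of bile, had 9.29, 9.51 and 9.58 in siRetSat, each below the 9.76, 9.65 and 9.73 in siControl cells. The gap was 0.07, and its log2 fold change of -0.25 did not pass (interval -0.49 to -0.02, adjusted p = 0.296 from limma). Abcg5 and Abcg8, the subunits of the canalicular sterol pump, had log2 fold changes of -0.09 (interval -0.46 to 0.27) and 0.01 (interval -0.25 to 0.27), and their groups overlapped. Their siControl means, 5.46 and 5.13, were also well under the 9.71 of Abcb4.

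**Figure D2:**
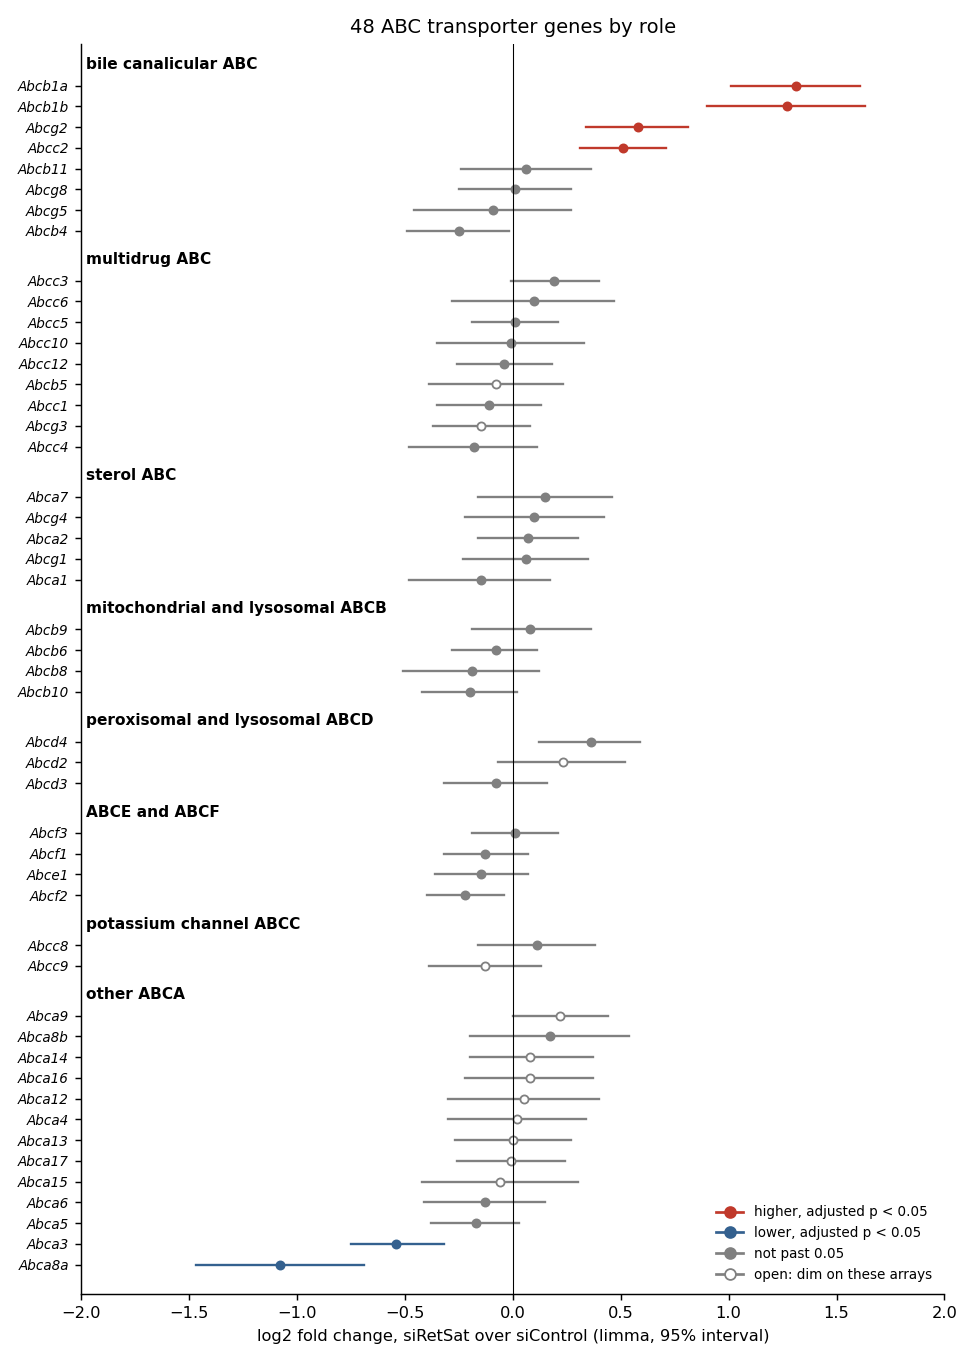
Each row is 1 of the 48 members, with a point at the log2 ratio of siRetSat to siControl on the x axis and the 95% interval from limma as a line; a member on several lists stands under the first that holds it, and open points are dim. Red points mark the 4 genes that rose, all under the canalicular heading, from 0.51 for Abcc2 to 1.31 for Abcb1a, and blue points Abca3 at -0.54 and Abca8a at -1.08.

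The sterol transporters showed no member past the threshold. Of the 7 on that list, which shares Abcg5 and Abcg8 with the canalicular list, none rose and none fell, and their log2 fold changes lay between -0.15 and 0.15 with a median of 0.06. None had an unadjusted p under 0.05 in limma, and none passed under any alternative. Abca1, which loads cholesterol onto apolipoprotein A-I and is a classical target of the liver X receptors, had 6.74, 7.28 and 7.10 in siRetSat and 7.11, 7.31 and 7.16 in siControl cells. The array numbered 1 alone lay clearly under the others of the siRetSat group, the groups overlapped, and the log2 fold change was -0.15 (interval -0.48 to 0.17, adjusted p = 0.773 from limma). Abcg1, which passes cholesterol to lipoprotein particles, had 5.49, 5.24 and 5.14 in siRetSat, against 5.41, 5.08 and 5.19 in siControl cells, a log2 fold change of 0.06. Abca7 gave 0.15, Abcg4 0.10 and Abca2 0.07, and the groups of each overlapped. In siControl cells Abcg1, Abca7 and Abcg4 averaged 5.23, 5.23 and 5.04, nearer the dim limit of 4.33 than Abca1 at 7.19.

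Among the 13 members on the multidrug list the 4 canalicular pumps rose and the remaining 9 did not pass, with a list median of 0.01. Abcc3 and Abcc4, which export conjugates across the blood-facing membrane of hepatocytes, had log2 fold changes of 0.19 and -0.18. Abcc3 measured 9.82, 9.76 and 9.79 in siRetSat, each above the 9.50, 9.70 and 9.59 in siControl cells, but the gap was 0.06 (adjusted p = 0.376 from limma). Abcc4 measured 7.58, 7.99 and 7.93 in siRetSat and 7.95, 7.94 and 8.16 in siControl cells, and the groups overlapped (adjusted p = 0.651). Abcc6, which supports ATP release from hepatocytes, had 0.10, Abcc5 0.01, Abcc10 -0.01, Abcc12 -0.04 and Abcc1 -0.11, and none of these separated the groups. Abcb5 and Abcg3 were dim, at means of 3.18 and 2.77 in siRetSat and 3.26 and 2.91 in siControl cells.

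Of the 13 remaining members of subfamily A, Abca8a and Abca3 fell and 11 did not pass, with a median of 0.00, and 8 of the 13 were dim. Abca8a, which has been linked to cellular cholesterol efflux, had 5.45, 5.55 and 5.69 in siRetSat and 6.30, 7.00 and 6.63 in siControl cells. Every siRetSat array was lower, by 0.61 or more, although the siControl arrays spread more widely than the siRetSat arrays, and 47.3% of the siControl signal remained (log2 fold change -1.08, standard error 0.169, adjusted p = 0.0143 from limma). Abca3, known best as the lipid transporter of surfactant-storing lamellar bodies in lung, measured 6.53, 6.62 and 6.76 in siRetSat and 7.11, 7.18 and 7.23 in siControl cells. These groups were 0.35 apart, and 68.9% of the siControl signal remained (log2 fold change -0.54, standard error 0.0941, adjusted p = 0.0213 from limma). Abca8a passed in 4 of the 6 fits that left out a single array and failed without siRetSat replicate 2 (adjusted p = 0.0753) and without siControl replicate 3 (adjusted p = 0.0530). Abca3 passed in 3 and failed without siRetSat replicate 2 and without siControl replicate 2 or 3 (adjusted p of up to 0.112). Among the 11 others, Abca5 lay lower on every siRetSat array, at 8.12, 8.28 and 8.31 against 8.40, 8.42 and 8.41 in siControl cells, but its log2 fold change of -0.17 did not pass (adjusted p = 0.446). The dim members Abca4, Abca9, Abca12, Abca13, Abca14, Abca15, Abca16 and Abca17 had log2 fold changes between -0.06 and 0.22.

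Abcb1a and Abcb1b changed unequally with their neighbour Abcb4, and Abca8a with its neighbours, whereas Abcb1a and Abcb1b differed little from each other. By RefSeq's gene order Abcb1a, Abcb1b and Abcb4 lie in a row, and the within-array difference of Abcb1a and Abcb4 moved by 1.57 (standard error 0.131) and that of Abcb1b and Abcb4 by 1.52 (standard error 0.124), each without overlap between the groups (exact permutation p = 0.1). A second row holds Abca8b, Abca8a, Abca9, Abca6 and Abca5. In it Abca8b, the closest relative of Abca8a, had 6.63, 6.95 and 7.04 in siRetSat and 6.48, 7.01 and 6.63 in siControl cells, which gave 0.17 on the log2 scale (limma adjusted p = 0.785). Within arrays, Abca8a minus Abca8b came to -1.18, -1.40 and -1.35 in siRetSat and -0.18, -0.01 and 0.00 in siControl cells. The differences of Abca8a with Abca6 and Abca5 moved by -0.95 and -0.91, and none of these 3 differences overlapped between the groups (exact permutation p = 0.1 each). The pairs were picked after the values were seen, and Abca8a and Abca8b, too, are close enough in sequence that their probes may share transcripts. Abcg5 and Abcg8, adjacent as well, kept a difference that moved by -0.10 (standard error 0.187, exact permutation p = 0.6).

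**Figure D3:**
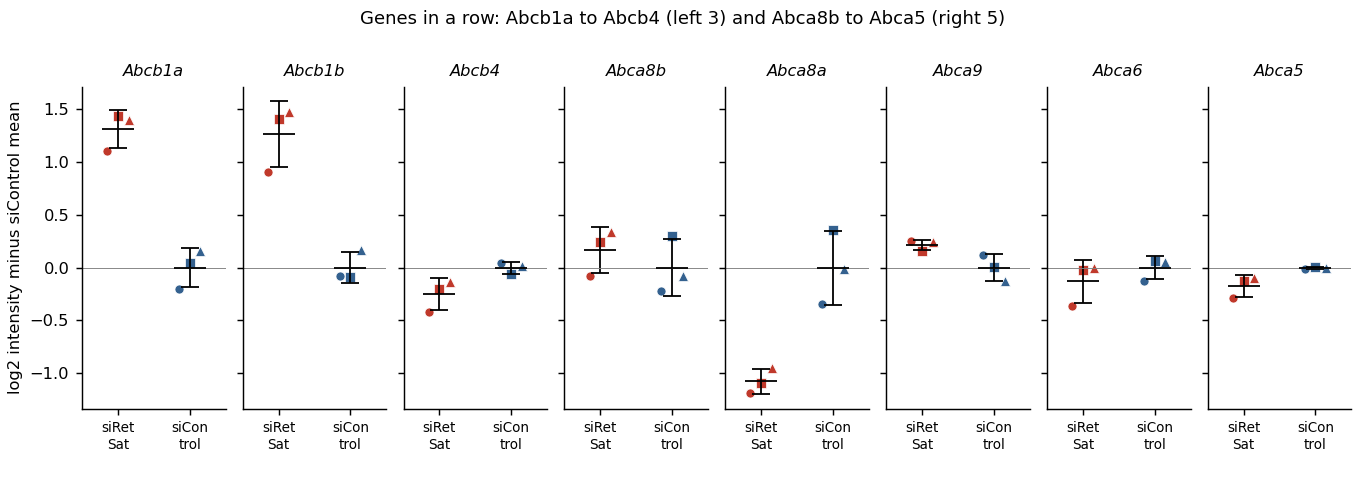
Each point is 1 array, as its log2 intensity minus the siControl mean of that gene on the y axis, with siRetSat left of siControl in each panel, in the gene order of RefSeq; circles, squares and triangles are the arrays numbered 1, 2 and 3, and bars show the mean and SD (n = 3). Abcb1a and Abcb1b average 1.31 and 1.27 above siControl while Abcb4 is at -0.25, and in the other row Abca8a is at -1.08 while Abca8b is at 0.17.

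The organelle members, the soluble members and the channel subunits did not pass, and 2 of these 13 (Abcd4 and Abcf2) had an unadjusted p under 0.05 in limma, a share near the 14.5% of all genes. Of 4 measured subfamily B transporters of mitochondria and lysosomes, Abcb10, which acts in haem synthesis, stood at -0.20 on the log2 scale (limma adjusted p = 0.410) and Abcb8 at -0.19 (adjusted p = 0.660). Abcb6 gave -0.08 and Abcb9 0.08. In subfamily D, Abcd4 had 6.38, 6.28 and 6.45 in siRetSat, each above the 5.92, 6.17 and 5.95 in siControl cells, with a log2 fold change of 0.36 (interval 0.12 to 0.59, adjusted p = 0.122). Abcd3, the abundant peroxisomal importer of fatty acyl-CoA and bile acid precursors, had -0.08, and its dim relative Abcd2 0.23. Abcf2 measured 9.11, 9.09 and 9.13 in siRetSat and 9.31, 9.35 and 9.32 in siControl cells. Its arrays hardly differed within a group, and the groups stood 0.18 apart, with a log2 fold change of -0.22 (limma adjusted p = 0.238). Abce1, the ribosome recycling factor, had -0.15 (adjusted p = 0.592), Abcf1 -0.13 and Abcf3 0.01. The sulphonylurea receptors Abcc8 and Abcc9, subunits of potassium channels, had 0.11 and -0.13.

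A further 3 ABC proteins carry symbols of another form and were looked at beside the members. Tap1, a subunit of the peptide transporter that loads MHC class I, had 8.19, 7.99 and 8.11 in siRetSat and 7.22, 7.37 and 7.41 in siControl cells. It was higher on every siRetSat array (log2 fold change 0.76, adjusted p = 0.00555 from limma), as was its partner Tap2 with 7.97, 7.79 and 7.90 against 7.32, 7.12 and 7.24 in siControl cells (log2 fold change 0.66, adjusted p = 0.00999). Tap1 passed in all 6 fits lacking an array and Tap2 in 5, failing without siControl replicate 2 (adjusted p = 0.0667). The chloride channel Cftr was dim, with a log2 fold change of -0.07.

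Among 16 measured nuclear receptors and other factors known to control ABC genes, 1 fell, none rose and 15 did not pass, with a median of 0.02. An unadjusted p under 0.05 in limma was found for 3 of the 16, beside 14.5% of all genes. Nfe2l2, the regulator of the antioxidant response and of Abcc2 in other settings, had 9.77, 9.94 and 9.89 in siRetSat and 10.26, 10.63 and 10.41 in siControl cells. It fell by 0.57 on the log2 scale (limma adjusted p = 0.0363). Leaving out each array in turn, this call held only without siControl replicate 1 and its adjusted p reached 0.146 in the others. The bile acid receptor Nr1h4 had -0.29 (adjusted p = 0.463), the oxysterol receptor Nr1h3 0.15 (adjusted p = 0.529), the xenobiotic receptor Nr1i2 -0.01 and the dioxin receptor Ahr -0.42 (adjusted p = 0.0579). Rxrg was dim and higher on every siRetSat array, with 0.61 (limma adjusted p = 0.135). Of 16 partners of canalicular and sterol pumps, including the aminophospholipid flippase Atp8b1 at 0.10 and the membrane linkers Ezr at 0.37 and Rdx at 0.01, none passed, and 4 had an unadjusted p under 0.05 (14.5% of all genes did). Of 8 partners of the peroxisomal members, 1 rose, Pex3 at 0.65 (adjusted p = 0.0478), which inserts peroxisomal membrane proteins, and none fell. By the same test 1.91% of all genes were higher and 1.66% lower. Among the 6 fits lacking an array, Pex3 passed only without siRetSat replicate 1, with an adjusted p of up to 0.177 in the others. In limma 4 of the 8 had an unadjusted p under 0.05, beside 14.5% of all genes. These were Pex3 and Ehhadh (0.30), which were higher, and Slc27a2 (-0.39) and Pex5 (-0.23), which were lower.

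Markers of the other liver cell types were read on the same arrays. In these bulk samples fewer cells of a type and less RNA per cell cannot be told apart. Of 14 macrophage markers 1 rose, Cd14 at 0.59 (adjusted p = 0.0208 from limma), and 13 did not pass. By the same test 1.91% of all genes were higher and 1.66% lower. In limma 2 of the 14 had an unadjusted p under 0.05, beside 14.5% of all genes, and 10 of the 14 were dim. Summed, the 14 ranged from 11.71 to 11.81 (log2) in siRetSat and from 11.28 to 11.44 in siControl cells. Cd68 makes up most of this sum, at means of 11.54 in siRetSat and 11.14 in siControl cells (log2 fold change 0.40, adjusted p = 0.0563), so the separation of the sums is largely that of 1 gene. Adgre1, Csf1r and Vsig4, all dim, averaged 3.25, 3.75 and 2.96 in siRetSat and 3.16, 3.66 and 3.02 in siControl cells. Clec4f and C1qa, which were not dim, averaged 4.49 and 4.56 in siRetSat and 4.25 and 4.35 in siControl cells. Their groups overlapped (adjusted p = 0.497 and 0.485 from limma). The log2 fold changes of the 14 ran from -0.12 to 0.59 with a median of 0.08. Of 6 cholangiocyte markers 1 rose, Sox9 at 0.45 (adjusted p = 0.0324), with summed levels of 8.44 to 8.53 in siRetSat and 8.37 to 8.48 in siControl cells. An unadjusted p under 0.05 in limma was found for 2 of these 6. None of 8 endothelial and none of 9 stellate cell and fibroblast markers passed, with 1 endothelial and no stellate cell or fibroblast marker at an unadjusted p under 0.05, beside 14.5% of all genes. Of 11 hepatocyte markers, Abcc2 rose, Cps1 (carbamoyl phosphate synthetase of the urea cycle) and Tat (tyrosine aminotransferase) fell and 8 did not pass. Abcb11 and Abca1, which like Abcc2 are members, were among these 8, so this list is not independent of the genes studied. For 4 of the 11 the unadjusted p in limma was under 0.05, beside 14.5% of all genes. Among the 6 fits lacking an array, Cd14 and Cps1 passed in 2 and Sox9 and Tat in 1, with adjusted p of up to 0.106 for Cd14, 0.134 for Cps1, 0.159 for Sox9 and 0.192 for Tat. The part of these markers in the changes of ABC genes was not tested.

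The calls depended on the test and the arrays. All 6 members kept their direction under each of 18 alternatives, and 71 of their 108 values stayed past the threshold. By the methods' t-test with Benjamini-Hochberg adjustment none of the 6 passed, with adjusted p between 0.0557 and 0.146, and Abcf2 alone did, at 0.0378. With background subtracted Abca8a (adjusted p = 0.107), Abca3 (adjusted p = 0.0596) and Abcg2 (adjusted p = 0.0801) failed. With both arrays numbered 2 left out none of the 48 members passed. Abcb1a otherwise passed in all of the alternatives, and Abcb1b in all but the subtraction of background (adjusted p = 0.0697).

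**Figure D4:**
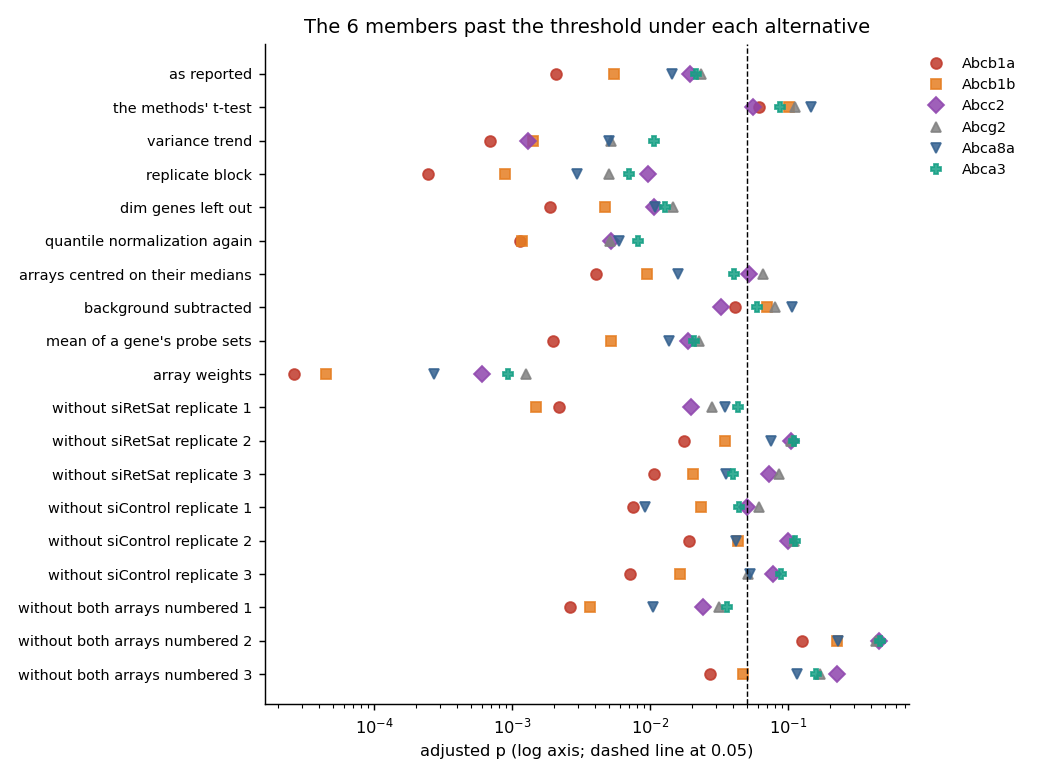
Each symbol is 1 of the 6 members past the threshold, with its adjusted p on a log x axis, in the reported fit (top row) and in 18 alternatives; the dashed line marks 0.05. Abcb1a and Abcb1b lie left of the line in all 6 fits without a single array, and all 6 genes lie right of it by the methods' t-test and without both arrays numbered 2.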

How the data were processed

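Per the labels, the authors normalised the arrays by RMA in Partek 6.6 and deposited log2 intensities for 35556 probe sets on 6 arrays (range 1.46 to 13.7, array medians 4.29 to 4.50). No source used here names the annotation version or build. GEO's platform table gave 1 symbol to 21789 probe sets, several to 1621 and none to 12146. Of the symbols, 21698 matched RefSeq by Entrez number. A gene took its brightest probe set, which left 19938 genes. The log2 values were fitted with limma 3.58.1 in R 4.3.3 (lmFit, eBayes, siRetSat minus siControl), and p was adjusted by Benjamini-Hochberg across the whole table, with calls at 0.05. Within-array differences between genes were tested by exact two-sided permutation. The scripts were tested on simulated arrays with 200 changed genes among 19938. There the limma fit recovered 1.1% of 1.25-fold, 32.8% of 1.5-fold and 85.4% of 2-fold changes at the threshold. Members that did not pass were therefore not shown to be unchanged. Sequences come from RefSeq, GRCm38.p6. Named were Retsat, members past the threshold, canalicular, sterol and multidrug members, the 2 members of each other list with the smallest p, and up to 4 genes of each companion list, with others added after their values were seen. The members and lists were chosen with earlier results of these data known. Array number and signal limit the precision.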

Additional observations from a re-analysis of the deposited data

How the results depend on the processing

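Under 18 alternatives Retsat kept its direction and passed in each, with log2 fold changes from -2.50 to -2.13. The 4 members higher became 0 by the methods' t-test with Benjamini-Hochberg adjustment, 2 with arrays centred on their medians, 2 with background subtracted, 0 without both arrays numbered 2, 2 without both arrays numbered 3 and 2 to 4 without a single array. The count of 2 members lower became 1 by the methods' t-test and 1 with background subtracted (Abcf2 in both, with Abca8a and Abca3 lost), 5 with array weights, 0 without both arrays numbered 2, 0 without both numbered 3 and 0 to 2 without a single array. Over all genes the 710 past the threshold became 196 by the methods' t-test, 422 with background subtracted, 2905 with array weights, 15 without both arrays numbered 2, 111 without both numbered 3 and 207 to 646 without a single array. The replicate block gave 1541, with 4 members higher and 2 lower as before. Same-numbered arrays correlated in their deviations at 0.547, 0.0398 and 0.541, and siRetSat replicate 2 correlated best with siControl replicate 3 (0.247). The main axis of these deviations (first principal component, 61.5% of their variance) placed the arrays numbered 1, 2 and 3 in that order in both groups. Values were -23.61, 7.258 and 16.35 in siRetSat and -19.05, 3.663 and 15.38 in siControl cells. The labels do not say what the numbers mark, so they were not taken as pairs. Of the 42 members not past the threshold, 39 passed under none and 3 (Abcf2, Abcb8 and Abcb10) under at least 1. The fits without 1 array or a number rest on fewer samples. The cause of the other differences was not tested.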
